A study of Danio rerio with 63 samples.

Results

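The comparison described here is between CA-acvr1b* explants at 50% epiboly, 3 libraries (A, B and C), and CA-acvr1b* explants at 30% epiboly, 3 libraries (A, B and C). These 6 libraries were taken from 63 by their labels, and every gene of the count table was compared, so no measured value chose them. An explant here is the animal part of a zebrafish blastula, cut from the embryo about 3 h after fertilization and grown in explant medium away from the yolk. The whole study followed 3 kinds of explant, injected at the 1-cell stage with 0.5 pg of CA-acvr1b* mRNA, injected at that stage with 10 pg of ndr2 mRNA, or uninjected, through 7 stages by sequencing polyadenylated RNA. The stages are sphere, 30% epiboly, 50% epiboly, shield, 75% epiboly, 90% epiboly and 2-somite, at about 4, 4.7, 5.3, 6, 8, 9 and 11 h post fertilization. The libraries compared were thus taken at about 5.3 h and 4.7 h. Both groups carry the same injected mRNA, so the contrast shows what changed with time in the presence of the active receptor, not what the receptor did. ndr2 and uninjected explants of the same 2 stages, 3 libraries each, are used only to see where the change differed. The design text calls A to C biological replicates, but no label says which clutch or culture each came from. P-values therefore measure the spread between libraries. That spread was estimated for each gene over all 63 libraries, in 21 groups, and not over these 6 alone. A gene whose libraries here do not overlap may therefore still not be called.

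Acvr1b is a type I receptor for Nodal and Activin ligands. On a cell that receives Nodal, it is activated by a type II receptor, with Tdgf1 (One-eyed pinhead) as co-receptor, and phosphorylates Smad2, which enters the nucleus with Smad4 and partners such as Foxh1 and Mixl1. An active form of the receptor signals without ligand. In the intact zebrafish embryo Nodal is made at the margin, next to the yolk, where it induces endoderm and mesoderm, the dorsal organizer among them, and is held in check by its own targets, the Lefty inhibitors. Epiboly is the spreading of the blastoderm over the yolk, and its percentages name stages. Between 30% and 50% epiboly the embryo is still clearing RNA that the egg supplied, is transcribing its own genome, and is about to start gastrulation. Explants have no yolk to cover, so the stage names mark age.

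Total counts ran between 13641002 and 18076185 in the 6 libraries, in a range of 11756626 to 19650245 over all 63, and 16688 to 19260 genes had at least 1 count. The fewest genes were detected in A at 50% (16688) and B at 30% (16979), against 18675 or more in each of the others. The deposited table holds 32057 gene rows, of which 19069 passed a filter on low counts and were tested. Levels are given in CPM, the usual scaling of counts to library size, adjusted for library composition with TMM factors of 0.935 to 1.15. A row at 0 allows up to 3 counts, which is 0.145 to 0.235 CPM in these libraries, and these limits cover counting error only. CPM is not divided by gene length, so levels are compared within a gene and not between genes. The table lists 4934 rows at 0 in all 63 libraries, 2236 of them protein-coding, and among them are genes that embryos of this age are known to use, such as gsc, ndr1, wnt8a and dkk1b. A row listed at 0 is therefore not read as a silent gene.

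Markers of the cell layers were checked against the label. The 17 enveloping layer markers summed to 9035, 11557 and 8696 CPM at 50% epiboly, with 1 of them at 0 in each library, against 2609, 3557 and 2428 CPM at 30%, with 2 at 0 in each. The 6 measured markers of the yolk syncytial layer, the layer that an explant should lack, summed to 1.88, 1.1 and 0.176 CPM at 50% and 0.981, 1.3 and 0.335 CPM at 30%, with 2 to 5 of the 6 at 0 in each library. The 10 germ cell markers were all detected and summed to 323, 359 and 438 CPM at 50% and 447, 403 and 473 CPM at 30%. So the libraries hold enveloping layer RNA beside that of the deep cells, and almost no RNA of the 6 yolk layer markers measured. The list has 12 such markers, and those not measured include mxtx2 and serpina1, listed at 0 in all 63 libraries. Absence of the yolk layer is therefore not shown. RNA of germ cell marker genes was present too. Whether it lay in germ cells or was left over from the egg in other cells was not tested. In bulk RNA, fewer cells of a type and less RNA per cell cannot be told apart, and this holds for every level below.

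The receptor itself was checked next. acvr1ba (ENSDARG00000018968) had 454, 402 and 359 CPM at 50% and 400, 352 and 334 CPM at 30% in CA-acvr1b* explants, with overlapping libraries. Its change was 0.16 on the log2 scale with a standard error (SE) of 0.17 and an adjusted p of 0.518 by edgeR, so no difference was detected. At 50% the same gene averaged 347 ± 23.6 CPM with injected ndr2 and 234 ± 25.7 CPM without injection (SD, n = 3 each). acvr1bb, the second copy, had 115, 132 and 157 CPM at 50% against 180, 138 and 178 CPM at 30%, also overlapping and not called (log2 change -0.29, SE 0.18, adjusted p = 0.227 by edgeR). The labels do not say which copy the injected mRNA encodes, and a count does not separate injected from endogenous transcript.

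The libraries of a stage differed on a score built from genes that change with stage. The score used here was chosen after seeing the data: it took the 3066 genes that rose and the 3607 that fell at least 2-fold in mean between sphere and shield in uninjected explants, and compared their median levels in each CA-acvr1b* library. The log2 ratio of the risers' median to the fallers' median was 1.19, 1.90 and 1.12 in A, B and C at 50%, and -0.98, -0.29 and -0.92 in A, B and C at 30%. B scored higher than A and C at both stages, yet the stages did not overlap. Whether the score of B reflects age or its mix of cells was not tested. The sphere libraries of the same explants scored -2.59, -2.40 and -2.69 and the shield libraries 2.14, 2.43 and 2.58, so the 6 libraries fell between their neighbours in time. Library A at 50% stood apart in another way, with the highest levels of endoderm and organizer genes and of mdm2, as given beside those genes.

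**Figure D1:**
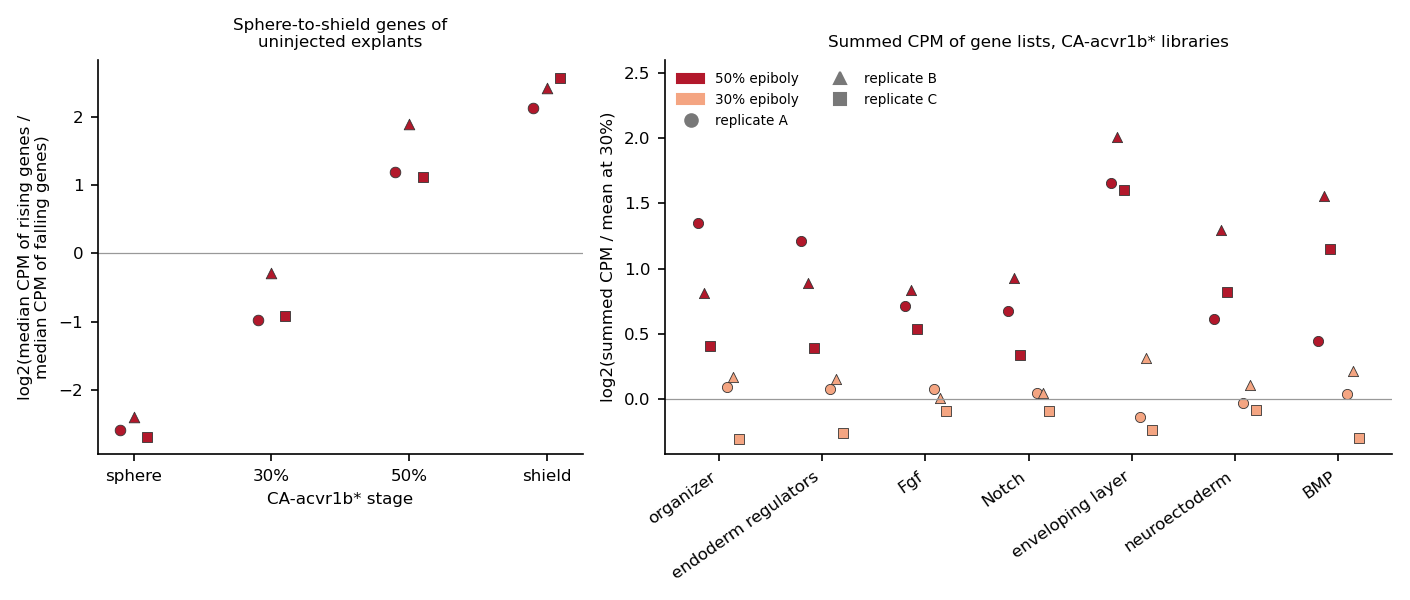
Left, the stage score of each CA-acvr1b* library (log2 ratio of the median CPM of genes that rise to that of genes that fall between sphere and shield in uninjected explants) at 4 stages; right, the summed CPM of 7 gene lists in each library, as log2 of the ratio to the mean of the 3 libraries at 30%, with 50% in dark and 30% in light red and replicates as circle (A), triangle (B) and square (C). The scores at 50% (1.12 to 1.90) lie above those at 30% (-0.98 to -0.29) with B highest at both, and A is highest at 50% for organizer and endoderm genes while B is highest for the other 5 lists.

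In CA-acvr1b* explants a large share of the transcriptome changed within this interval, in both directions. By edgeR's quasi-likelihood test, with p-values adjusted over all genes by Benjamini-Hochberg and called under 0.05, 6063 of 19069 genes differed between 50% and 30% epiboly (31.8%). Of these, 3221 were higher at 50% (16.9%) and 2842 lower (14.9%), and 3425 changed at least 2-fold (18%), 1849 upward (9.7%) and 1576 downward (8.26%). The 3 libraries of a stage did not overlap those of the other for 8345 genes (43.8%), 4001 higher (21%) and 4344 lower (22.8%) at 50%. The shares called higher (16.9%), called lower (14.9%) and without overlap (43.8%) are the background for each list and family below. The balance of rises and falls rests on the scaling: 53.1% of the called genes were higher with TMM factors and 51.8% with DESeq2 size factors. With library totals alone, a scaling chosen after seeing the data, every change moves by a median of -0.193 on the log2 scale and 38.4% of the called genes were higher.

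The change was part of a longer course. Of the 3221 genes that rose, 202 (6.27%) had their highest mean over the 7 stages at 50% epiboly, while 736 (22.9%) peaked at shield, 776 (24.1%) at 75% epiboly, 556 (17.3%) at 90% epiboly and 943 (29.3%) at the 2-somite stage. Most rising genes thus had higher means later. Of the 2842 that fell, 548 (19.3%) had their lowest mean at 50%, 790 (27.8%) at shield, 550 (19.4%) at 75% epiboly, 364 (12.8%) at 90% epiboly and 578 (20.3%) at the 2-somite stage. Among genes that reached a mean of 5 CPM at 50% or 30%, the median level of the 2592 that rose was 14.8, 25.4, 53.3, 72.2, 82.8, 80.3 and 73.2 CPM from sphere to 2-somite. That of the 2550 that fell was 63.5, 39.2, 19.6, 14.6, 14.5, 15.9 and 18.6 CPM over the same 7 stages. Both sets were chosen by their change between 30% and 50%, so a large step of the medians in that interval follows from the choice.

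**Figure D2:**
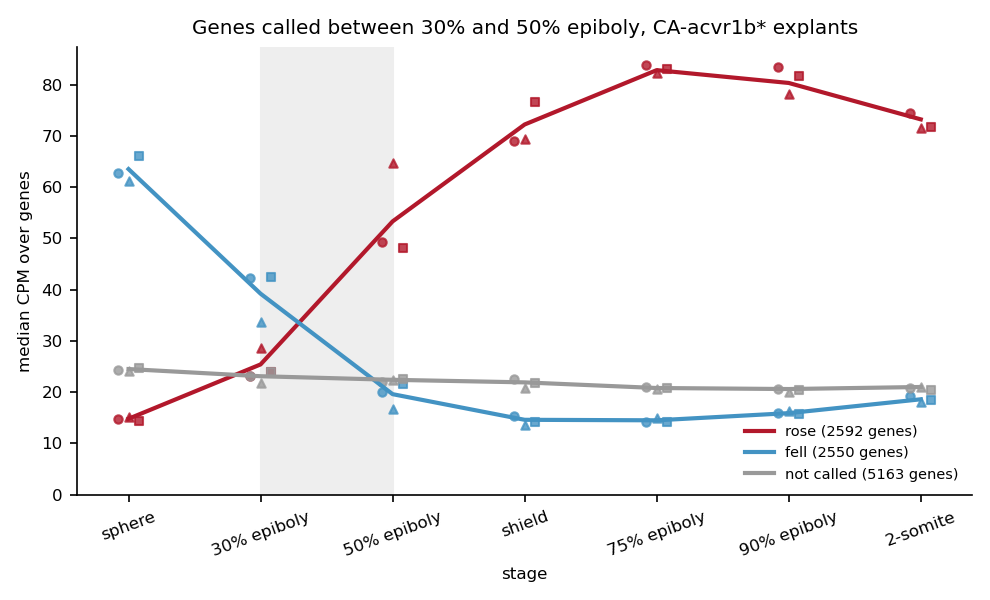
Median CPM over genes, from sphere to 2-somite in CA-acvr1b* explants, of genes that rose (2592, red), fell (2550, blue) or were not called (5163, grey) between 30% and 50% epiboly and reached a mean of 5 CPM at either stage; lines join the medians over genes of the 3-library means, points show each library (circle A, triangle B, square C), and the interval is shaded. The rising genes reach 53.3 CPM at 50% epiboly and 72.2 CPM at shield, and the falling ones 19.6 and 14.6 CPM.

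Replicate B carried the highest 50% value for most rising genes. Of the 3221, 2418 were highest in B at 50%, 573 in A and 230 in C. Without B at 50%, 4354 genes were called in place of 6063, which was the lowest count when 1 library was left out. The highest was 5670, without C at 50%.

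The 12 largest rises began with genes that had almost no counts at 30%. sox2, a SoxB1 factor of early neural tissue, had 3.4, 102 and 23 CPM at 50% and 0, 0 and 0.0558 CPM at 30%, where 1 count stood in 3 libraries, a ratio of 2196 with a 95% counting interval of 394 to 86789 (adjusted p = 8.63e-08 by edgeR). The 3 libraries at 50% differ widely among themselves, with A lowest and B highest. uox, which encodes urate oxidase, had 3.76, 8.24 and 5.28 CPM at 50% and was at 0 in all 3 libraries at 30%, so it was at least 37-fold higher (floor of 3 counts per library; adjusted p = 5.02e-07). eve1, a homeobox gene of the ventral margin, had 2.61, 27.1 and 11.5 CPM at 50% against 1 count in the 3 libraries at 30%, a ratio of 735 (interval 131 to 29078, adjusted p = 4.32e-05). rbbp8l was similar, with 6.25, 7.77 and 4.87 CPM at 50% and 1 count in all at 30% (ratio 357, interval 63.6 to 14167, adjusted p = 2.45e-09). The 12 rises, like the 12 falls, were picked among called genes without overlap between the stages, so its absence follows from the choice.

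Other large rises were also highest in B at 50%. abcc6b.2, an ABC transporter gene, had 44.8, 117 and 52.3 CPM at 50% and 0.207, 1.74 and 0 CPM at 30% (log2 change 6.71, SE 0.84, adjusted p = 5.42e-08). znf750, whose human counterpart drives the final differentiation of epidermal cells, had 36.6, 68.6 and 38.8 CPM at 50% and 0, 1.45 and 0.112 CPM at 30% (6.44, SE 0.74, adjusted p = 1.02e-08). anxa1c, an annexin gene of the enveloping layer, rose by 6.03, mal2 by 5.98 and the connexin gene cx35.4 by 5.54 on the log2 scale. Of these 5 genes, anxa1c alone is on the enveloping layer list. lmo2, known for its part in making blood and vessels, had 3.04, 24.8 and 14.5 CPM at 50% and 0, 0.627 and 0.279 CPM at 30% (5.48, SE 0.87, adjusted p = 3.57e-06). her1 and dlc are described with their group.

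The largest falls were smaller on the log2 scale than the largest rises. kmt2ca, which encodes a histone H3 lysine methyltransferase, had 14.4, 15.1 and 19.8 CPM at 50% against 101, 67.1 and 99.3 CPM at 30% (log2 change -2.44, SE 0.27, adjusted p = 1.92e-09). osbpl3a, a gene of the oxysterol-binding protein family, had 2.55, 1.57 and 3.11 CPM at 50% and 17.9, 8.24 and 16.4 CPM at 30% (-2.54, SE 0.34, adjusted p = 9.84e-08). tbpl2, a TATA-binding protein relative that serves transcription in the egg, had 0.546, 0.863 and 2.05 CPM at 50% and 8.26, 9.5 and 9.04 CPM at 30% (-2.93, SE 0.66, adjusted p = 4.44e-04). Absence of overlap was again a condition of the choice. gas2b fell by 3.40, alpk2 by 2.90, the kinase gene tnk2b by 2.73, ica1 by 2.68, the potassium channel gene kcnn1b by 2.51, the receptor gene calcrlb by 2.49, the mitochondrial deacetylase gene sirt3 by 2.44 and the deubiquitinase gene usp46 by 2.42 on the log2 scale. None of those 8 had a level above 6.1 CPM in any library at 50%.

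By change in mean CPM, which is not divided by gene length, the largest shifts were of other genes. eef1a1l1, a translation elongation factor, had 11330, 13858 and 10903 CPM at 50% against 5175, 6078 and 4899 CPM at 30% (log2 change 1.16, SE 0.18, adjusted p = 1.36e-06). hmga1a, a chromatin protein gene, rose by 0.99 and khdrbs1a, which encodes an RNA-binding protein, by 0.82. nanog (ENSDARG00000075113), a maternal factor that opens the embryo's own transcription, had 1157, 622 and 1198 CPM at 50% and 2792, 2340 and 2634 CPM at 30% (-1.38, SE 0.30, adjusted p = 3.85e-04), with no overlap. mkrn4 fell by 1.1 and slc16a3, a monocarboxylate transporter gene, by 1.24, a call that was not made without A or C at 30% or without B or C at 50% (adjusted p up to 0.174).

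The Nodal pathway itself changed little in number. Of 16 ligand, receptor, effector and feedback genes on the list, 15 were tested, 1 rose and 3 fell, which is close to the 31.8% of all tested genes that were called in either direction. The list's median log2 change was -0.06, beside -0.03 for all genes. The ligand gene ndr2 (ENSDARG00000101279) had 7.89, 8.31 and 5.33 CPM at 50% and 1.34, 2.07 and 2.18 CPM at 30%, a change of 1.94 (SE 0.55, adjusted p = 0.00522 by edgeR) with no overlap. The effector smad2 had 79.2, 76 and 87.2 CPM at 50% and 146, 152 and 175 CPM at 30% (-0.97, SE 0.15, adjusted p = 2.17e-06). The type II receptor acvr2ba fell by 0.66 (SE 0.15, adjusted p = 4.77e-04) and smad4a, the shared partner of receptor Smads, by 0.28 (SE 0.11, adjusted p = 0.0377). smad2, acvr2ba and smad4a were each lower in all 3 libraries at 50% than in any at 30%. The call of smad4a was lost without any 1 library except B at 30% (adjusted p up to 0.183).

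The feedback inhibitors did not pass the test. lft1 had 18.9, 6.82 and 3.34 CPM at 50% and 8.21, 5.88 and 5.8 CPM at 30% (log2 change 0.55, SE 0.68, adjusted p = 0.584), and lft2 had 23.4, 9.26 and 5.22 CPM at 50% and 7.18, 7.86 and 5.24 CPM at 30% (0.90, SE 0.67, adjusted p = 0.323). Both genes were highest in A at 50%, where C lay below the 30% libraries. Without A at 50%, the change of lft1 was -0.39. The co-receptor gene tdgf1 (0.48, SE 0.28) and foxh1 (0.27, SE 0.17) were not called, at adjusted p-values of 0.197 and 0.227. ndr1, the other Nodal gene of the list, is listed at 0 and was not tested.

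Endoderm regulators, among them genes that Nodal switches on at the highest signal, were mostly higher at 50%. Of 12 tested, 7 rose and 1 fell, with a median log2 change of 1.82, against 0.22 in ndr2 explants and 0.16 in uninjected explants. The medians of the other explants rest in part on rows with almost no counts. sox17 had 0 CPM at both stages in ndr2 explants, and osr1 had 0.0196 and 0 CPM at 50% and 30% in uninjected explants. The 12 genes summed to 799, 638 and 453 CPM at 50% and 363, 383 and 288 CPM at 30%. mixl1 (ENSDARG00000069252), a Mix-type homeobox gene and direct Nodal target, had 156, 69 and 36.2 CPM at 50% against 21.3, 27.6 and 17.5 CPM at 30% (1.98, SE 0.49, adjusted p = 0.00139 by edgeR). sebox, a homeobox gene that acts beside it, had 68.2, 40.6 and 17.5 CPM at 50% and 8.98, 10 and 3.46 CPM at 30% (2.49, SE 0.73, adjusted p = 0.00687). Neither gene overlapped between stages, and both stood in the order A, B, C at 50%.

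Among the other called endoderm genes, sox17, gata5, gata6 and osr1 rose from low levels and overlapped between stages. sox17, the factor that marks committed endoderm, had 5.71, 3.22 and 0.117 CPM at 50% and 0.103, 0.337 and 0.335 CPM at 30% (log2 change 3.50, SE 1.00, adjusted p = 0.00601), so C at 50% lay within the 30% libraries. gata5 had 20.7, 9.96 and 3.81 CPM at 50% and 0.929, 4.96 and 1.9 CPM at 30% (2.14, SE 0.71, adjusted p = 0.0168). gata6 rose by 2.11 and osr1 by 2.20, and cxcr4a, the chemokine receptor of migrating endoderm, by 0.60. All 7 but cxcr4a were highest in A at 50%. eomesa, a T-box gene whose egg-supplied product helps start endoderm, was the 1 member that fell, with 14.9, 10.8 and 17.4 CPM at 50% and 46.5, 45.8 and 58.6 CPM at 30% (-1.80, SE 0.37, adjusted p = 1.34e-04). foxa3 (1.08, SE 0.48, adjusted p = 0.0788) and foxa2 (1.15, SE 0.60, adjusted p = 0.148) were not called. Of sox32, the gene upstream of sox17, the levels were 23.7, 7.3 and 2.46 CPM at 50% and 1.91, 6.17 and 2.4 CPM at 30%, with overlap and no call (1.67, SE 0.86, adjusted p = 0.139).

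The count of endoderm genes depends on single libraries. It was 1 higher (cxcr4a) without A at 50%, 4 without A at 30% and 2 without C at 30%. cxcr4a in turn was lost without B (adjusted p = 0.0974) or C (0.087) at 50%, without C at 30% (0.111) and with library totals (0.0913). Without A at 50%, the adjusted p was 0.0598 for sox17, 0.0573 for sebox, 0.0547 for mixl1, 0.17 for gata5, 0.173 for gata6 and 0.207 for osr1. The same library was also highest for mdm2 and 5 other genes given beside it further on, and how the levels of these and of endoderm genes in it relate was not tested.

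Organizer and axial mesoderm genes rose in part. Of 14 tested, 5 rose, none fell and 9 were not called, with a median log2 change of 1.24, against 0.21 in ndr2 explants and -0.06 in uninjected explants. Among all genes, 16.9% rose and 14.9% fell. tbxta (ENSDARG00000101576), the T-box gene of notochord and tail, had 263, 188 and 76 CPM at 50% and 26.9, 36.5 and 19.3 CPM at 30% (2.67, SE 0.76, adjusted p = 0.0055 by edgeR). lhx1a (ENSDARG00000014018), a LIM homeobox gene of the organizer, had 66.2, 46.7 and 16.4 CPM at 50% and 8.21, 6.65 and 8.42 CPM at 30% (2.47, SE 0.64, adjusted p = 0.00235). Both were higher in every library at 50%, in the order A, B, C. tbxtb, the second copy of the gene, had 0.668, 4.63 and 1.76 CPM at 50% and 2 counts in 1 library at 30%, a ratio of 62.7 with a counting interval of 16.9 to 525 (adjusted p = 0.0015).

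frzb, a secreted Wnt antagonist, rose by 2.21 (adjusted p = 0.0143) although C at 50%, at 0.762 CPM, was below all 3 libraries at 30%. fscn1a, which bundles actin, had 1208, 918 and 784 CPM at 50% and 620, 637 and 487 CPM at 30% (0.74, SE 0.21, adjusted p = 0.0061). chrd, the BMP antagonist secreted by the organizer, had 462, 247 and 162 CPM at 50% and 131, 144 and 80.3 CPM at 30%. Its libraries did not overlap, but the change of 1.29 (SE 0.55) missed the threshold at an adjusted p of 0.0667. noto, a notochord homeobox gene, had 130, 83.3 and 68.8 CPM at 50% and 82.6, 97.5 and 63 CPM at 30% (0.22, SE 0.40, adjusted p = 0.73), and its change was -0.09 without A at 50%. Without A at 50%, 3 members were called higher in place of 5, with frzb at an adjusted p of 0.0839 and fscn1a at 0.068. The call of frzb was also lost without B at 50% (0.0691) or A at 30% (0.0503). gsc and dkk1b are listed at 0 and were not tested.

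The genes of the remaining margin gave a mixed picture. Of 14 tested genes of paraxial, lateral and ventral mesoderm, 5 rose and none fell, with a median log2 change of 1.24, against 0 in ndr2 explants and -0.09 in uninjected explants. Of all genes, 16.9% rose and 14.9% fell. The medians of the other explants rest in part on rows with almost no counts. mespab and tbx16l, for example, had 0 CPM at both stages in uninjected explants, which gives a change of 0. Apart from eve1, these risers were at low levels at 50%. cdx4, a posterior homeobox gene, had 4.8, 9.33 and 2.46 CPM at 50% and 0, 0.53 and 0 CPM at 30% (4.80, SE 1.08, adjusted p = 5.41e-04 by edgeR). mespab, a somite patterning factor, had 1.03, 1.18 and 0.235 CPM at 50% and none at 30%, at least 5.23-fold higher (adjusted p = 0.0028). ripply1, a repressor in somite formation, rose by 3.05 (adjusted p = 0.0116), and tbx16l by 3.16 (adjusted p = 0.0486), though C at 50% had 0 counts of tbx16l and both genes overlapped between stages.

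tbx16, the T-box gene needed for trunk mesoderm, was abundant at both stages, with 1005, 1140 and 1211 CPM at 50% and 738, 892 and 640 CPM at 30%. All 3 libraries at 50% were higher, but the change of 0.56 (SE 0.59) was not called (adjusted p = 0.51). msgn1 had 1.09, 2.2 and 1.99 CPM at 50% and 0.62, 1.69 and 0.837 CPM at 30% (0.73, SE 0.87, adjusted p = 0.57). The count of 5 was 3 without B at 50% and 3 without A at 30%, where ripply1 was at adjusted p-values of 0.347 and 0.0546 and tbx16l at 0.422 and 0.119. Without C at 30%, ripply1 was at 0.0507 and tbx16l at 0.111, and tbx16l was also lost without A at 50% (0.0567) or B at 30% (0.112). The call of tbx16l was not made by DESeq2 (0.0885), without the filter on low counts (0.0775) or with library totals (0.0616) either.

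**Figure D3:**
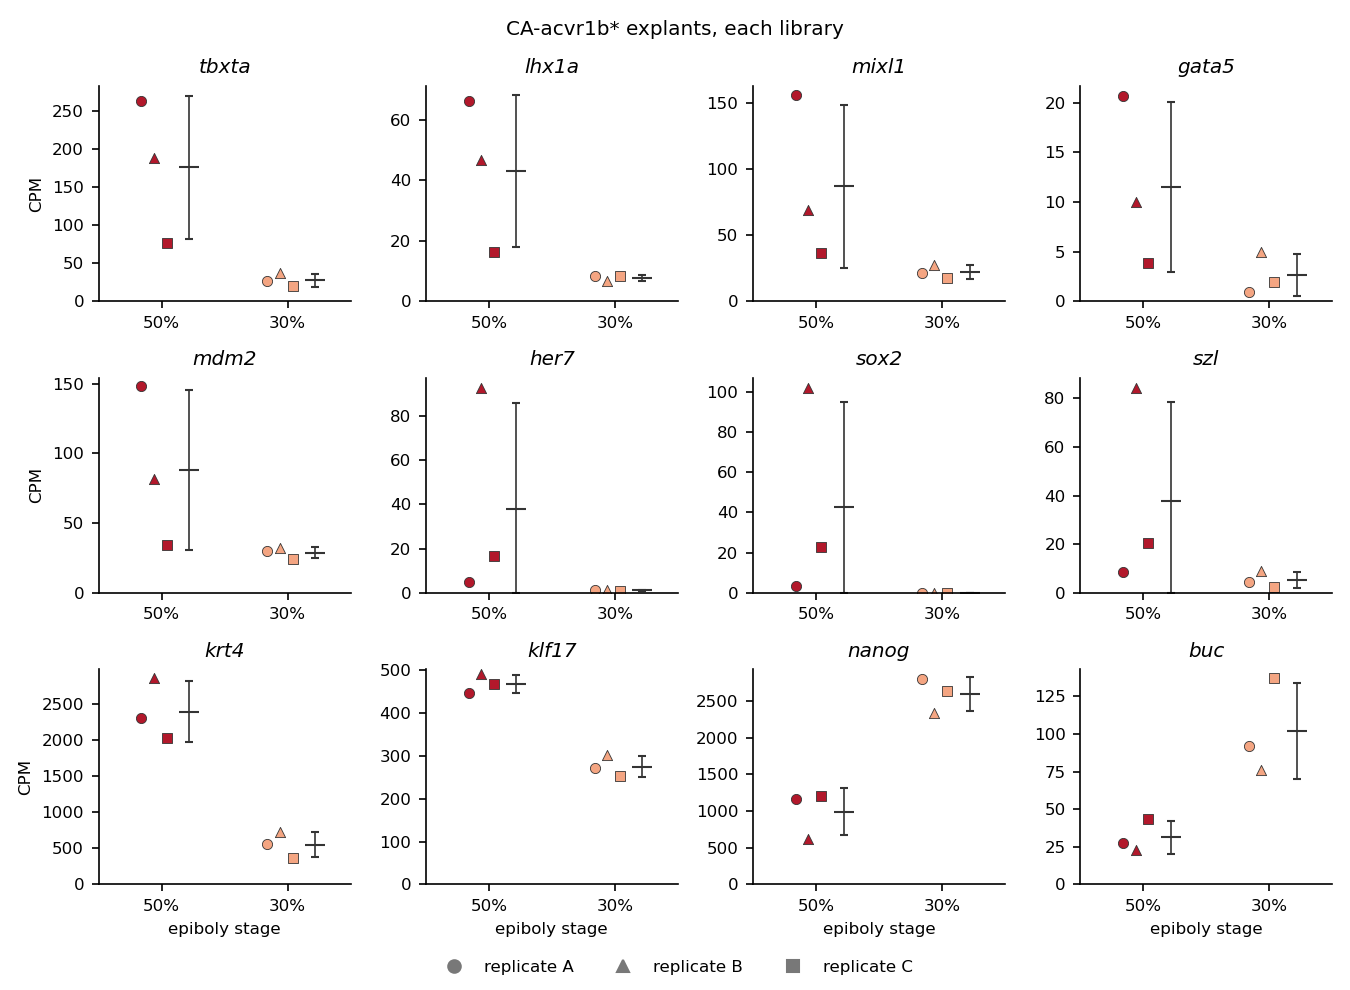
CPM of 12 genes in the 3 CA-acvr1b* libraries at 50% epiboly (left in each panel) and the 3 at 30% (right), with replicates as circle (A), triangle (B) and square (C), and the mean and SD beside the points, lower bar ends stopped at 0. tbxta, mixl1 and lhx1a stand in the order A, B, C at 50%, while sox2 and her7 are highest in B, and nanog lies between 622 and 1198 CPM at 50% against 2340 to 2792 CPM at 30%.

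Some ligands and feedback inhibitors of Fgf signalling, which the margin uses with Nodal to make mesoderm, rose. Of 14 tested genes, 7 rose and none fell, with a median log2 change of 1.16, against 0.97 in ndr2 explants and 0.79 in uninjected explants. Among the ligands, fgf24 had 15.1, 8.86 and 8.5 CPM at 50% and 0.878, 3.23 and 1 CPM at 30% (2.65, SE 0.84, adjusted p = 0.0125 by edgeR), and fgf8a had 20.8, 11.1 and 5.51 CPM at 50% and 5.89, 4.87 and 2.23 CPM at 30% (1.52, SE 0.54, adjusted p = 0.028). fgf24 did not overlap, while C at 50% lay within the 30% libraries for fgf8a. Among the feedback genes, the Sprouty gene spry1 had 28.2, 26.2 and 16.8 CPM at 50% and 4.75, 7.09 and 4.69 CPM at 30% (2.1, SE 0.45, adjusted p = 2.63e-04). dusp6, which encodes a phosphatase of MAP kinase, had 56.1, 83.6 and 36.3 CPM at 50% and 19.8, 15.2 and 12.6 CPM at 30% (1.88, SE 0.41, adjusted p = 3.25e-04). spry2 rose by 1.58 and spred2a by 1.14. Each of these 4 feedback genes was higher in every library at 50%. Without C at 30%, 4 members were called in place of 7, with fgf24 at an adjusted p of 0.0668, fgf8a at 0.144 and spred2a at 0.0947. Losing another library ended the calls of fgf24 (0.071 without A at 30%), fgf8a (0.247 without A at 50%, 0.0517 without B at 30%) and spred2a (0.0967 without B at 50%, 0.054 without C at 50%, 0.0816 without A at 30%).

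BMP ligands and targets, which mark the ventral side of the embryo, were highest in replicate B. Of 20 tested, 9 rose and 1 was called lower, with a median log2 change of 0.84, or 0.66 with the gene at 0 in 1 stage set at its bound, against 1.28 in ndr2 explants and 1.19 in uninjected explants. The list summed to 805, 1743 and 1318 CPM at 50% and 608, 690 and 481 CPM at 30%. bmp4, a ligand gene, had 17.1, 58.4 and 28.1 CPM at 50% and 6.61, 10.6 and 5.41 CPM at 30% (2.19, SE 0.51, adjusted p = 8.00e-04 by edgeR). vent, a ventral homeobox repressor, had 63.6, 131 and 102 CPM at 50% and 19.2, 37.6 and 7.75 CPM at 30% (2.19, SE 0.48, adjusted p = 3.32e-04). Both stood in the order B, C, A at 50% and did not overlap.

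szl, a secreted inhibitor of the proteases that free BMP from Chordin, had 8.68, 84.3 and 20.5 CPM at 50% and 4.54, 8.87 and 2.34 CPM at 30% (2.83, SE 0.93, adjusted p = 0.0163), with A at 50% under B at 30%. The inhibitory Smad gene smad6a rose by 2.53 (SE 0.63, adjusted p = 0.00161). msx3 had 0, 3.37 and 0.762 CPM at 50% and 1 count at 30%, a ratio of 70.2 with an interval of 12.1 to 2823 (adjusted p = 0.00354). id2b, the called member that was lower, had no count at 50% and 6, 0 and 4 counts at 30%, a level at which no fold is given (adjusted p = 0.0497). bmp7a had 137, 265 and 225 CPM at 50% and 148, 180 and 148 CPM at 30% (0.40, SE 0.54, adjusted p = 0.622), and id1 missed the threshold at 0.65 (SE 0.27, adjusted p = 0.0572). Without B at 50%, 5 members were called higher in place of 9, with szl at an adjusted p of 0.288 and msx3 at 0.118. szl was also lost without A (0.0634) or C (0.0843) at 30%, and id2b without any 1 library except B at 30% (up to 0.149).

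Genes of canonical Wnt signalling split. Of 12 tested, 4 rose and 1 fell, beside 31.8% of all genes called in either direction. The median log2 change was 0.33, against -0.03 in ndr2 explants and 0.13 in uninjected explants. sp5l, a zinc finger target of Wnt, had 60.6, 230 and 74.3 CPM at 50% and 1.91, 7.23 and 3.07 CPM at 30% (4.89, SE 0.84, adjusted p = 1.37e-05 by edgeR). sp5a, its relative, had 6.37, 3.06 and 1.17 CPM at 50% and 0.413, 0.578 and 0 CPM at 30% (3.35, SE 0.84, adjusted p = 0.00183). They did not overlap, and were highest in different libraries at 50%, sp5l in B and sp5a in A. The antagonist nkd1 rose by 1.77 and the repressor tcf7l1b by 0.75, while axin1, a scaffold of the complex that destroys beta-catenin, fell by 0.68 (SE 0.11, adjusted p = 4.41e-06). notum1a (1.09, SE 0.47, adjusted p = 0.0707) was not called, though its libraries did not overlap. Without B at 50% the counts were 2 higher and 2 lower, with nkd1 at an adjusted p of 0.0521 and tcf7l1b at 0.152. nkd1 was also lost without A at 50% (0.0696), A at 30% (0.0646) or B at 30% (0.146).

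Most of the Notch ligand, receptor and oscillating Hairy genes rose. Of 12 tested, 8 rose, none fell and 4 were not called, with a median log2 change of 2.12, against 2.14 in ndr2 explants and 2.05 in uninjected explants. her1 and her7 are transcriptional repressors that cycle in the somite clock. her7 had 4.67, 92.6 and 16.5 CPM at 50% and 1.29, 1.16 and 0.669 CPM at 30% (5.17, SE 0.99, adjusted p = 6.87e-05 by edgeR), and her1 had 7.47, 56.1 and 8.15 CPM at 50% and 0.103, 0.868 and 0.112 CPM at 30% (5.96, SE 1.07, adjusted p = 2.55e-05). B held most of the signal at 50%, but A and C were above every library at 30%.

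Of the Delta ligands, dld had 36.2, 63.1 and 34.8 CPM at 50% and 0.103, 2.02 and 1.12 CPM at 30% (log2 change 5.34, SE 0.68, adjusted p = 8.16e-08), and dlc had 1.09, 39.7 and 8.62 CPM at 50% and 0.878, 0 and 0.167 CPM at 30% (5.53, SE 1.05, adjusted p = 5.63e-05). dla rose by 3.01 (adjusted p = 0.042), with no count in A at 50% and overlap. hes6, a modulator of Hairy proteins, had 51.6, 75.4 and 45.8 CPM at 50% and 11.8, 15.9 and 10.3 CPM at 30% (2.18, SE 0.37, adjusted p = 1.03e-05). Of the receptors, notch1b and notch3, chosen here after their values were seen, both rose by 2.06 (adjusted p = 0.00989 and 0.00261). notch1a had 736, 736 and 554 CPM at 50% and 605, 586 and 538 CPM at 30% (0.23, SE 0.13, adjusted p = 0.164) and was not called. Leaving out 1 library gave between 6 and 9 members called higher, and dla was lost without B at 50% (adjusted p = 0.675), B at 30% (0.144) or C at 30% (0.141).

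Ectodermal genes were divided. Of 15 tested neuroectoderm genes, 5 rose and 2 fell, with a median log2 change of 0.33, against 0 in ndr2 explants and -0.40 in uninjected explants. The medians of the other explants rest in part on rows with few counts. her3, for example, averaged 0.646 CPM at 50% and 0.844 CPM at 30% in uninjected explants, and 0.373 and 0.541 CPM in ndr2 explants. Beside sox2, the SoxB1 gene sox3 had 326, 826 and 540 CPM at 50% and 154, 191 and 141 CPM at 30% (1.80, SE 0.53, adjusted p = 0.00684 by edgeR). otx2a, a homeobox gene of anterior brain, had 24.6, 22.5 and 10 CPM at 50% and 3.36, 4.77 and 4.3 CPM at 30% (2.19, SE 0.49, adjusted p = 5.12e-04), while its relative otx1 had 23.2, 18.4 and 21.8 CPM at 50% and 63.7, 59.7 and 71 CPM at 30% (-1.62, SE 0.44, adjusted p = 0.0039). Within the otx family, otx2a and otx1 thus moved in opposite directions, with no overlap in either, while otx2b, counted with the organizer genes, was not called. Without B at 50%, sox3 was at an adjusted p of 0.0621.

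her3, a repressor of neurogenesis, rose by 2.04 (adjusted p = 0.019). her5, a Hairy gene of the midbrain boundary, had 24.6, 6.51 and 14 CPM at 50% and 112, 70.8 and 91 CPM at 30% (-2.59, SE 0.55, adjusted p = 2.45e-04), which also placed it among the 12 largest falls. Of 11 tested non-neural ectoderm genes, 2 rose, a share near the 16.9% of all genes. Their median log2 change was 0.26, against 0.45 in ndr2 explants and 1.68 in uninjected explants, although the median over these genes of the difference from uninjected explants was -0.17. tfap2c, a factor of epidermis and neural crest, had 57.4, 235 and 146 CPM at 50% and 39.1, 55.9 and 31.2 CPM at 30% (1.79, SE 0.50, adjusted p = 0.00476). dlx3b, a placode gene, had 1.52, 2.12 and 0.645 CPM at 50% and 2 counts in 1 library at 30% (ratio 39.5, interval 10.5 to 333, adjusted p = 0.00581), and gata3 was not called (0.26, SE 0.32, adjusted p = 0.591). Without B at 50%, 1 non-neural gene was called, with tfap2c at an adjusted p of 0.0776. her3 was lost without A at 50% (0.224) or A at 30% (0.112).

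The enveloping layer, the outer epithelium of the blastula, had the largest median rise of the lists. Of 17 markers, 14 rose, none fell and 16 had libraries that did not overlap, with a median log2 change of 2.32, against 1.84 in ndr2 explants and 2.04 in uninjected explants. Over all genes, 16.9% rose, 14.9% fell and 43.8% did not overlap. The keratin gene krt17 had 36.3, 77.8 and 44 CPM at 50% and 0.465, 2.99 and 0.335 CPM at 30% (5.33, SE 0.73, adjusted p = 3.73e-07 by edgeR). cyt1, another keratin gene, had 205, 462 and 234 CPM at 50% and 5.78, 23 and 4.8 CPM at 30% (4.74, SE 0.62, adjusted p = 1.26e-07), and its near relative cyt1l rose by 4.71. krt92 had 770, 1191 and 836 CPM at 50% and 111, 197 and 96.7 CPM at 30% (2.79, SE 0.61, adjusted p = 3.65e-04). B was highest at both stages in each of these. agr1, an anterior gradient gene, had 1.15, 5.26 and 1.29 CPM at 50% and no count at 30%, at least 16.5-fold higher (adjusted p = 1.55e-04).

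The upstream factors of this layer moved less than the keratins. grhl3 (log2 change 0.27, SE 0.37) and grhl1 (0.70, SE 0.46), Grainyhead factors of epithelium, were not called, at adjusted p-values of 0.628 and 0.256. klf17, a zinc finger factor of the same layer, had 447, 490 and 467 CPM at 50% and 272, 302 and 253 CPM at 30%, a rise of 0.77 (SE 0.17, adjusted p = 3.04e-04). Whether reads shared between near-identical keratin copies were counted is not given, so values of single keratin genes are less certain than the group. The part of enveloping layer RNA in the changes of other genes was not tested.

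Genes of cell movement and adhesion rose in part. Of 21 tested, 9 rose and none fell, with a median log2 change of 0.75, against 0.35 in ndr2 explants and 0.65 in uninjected explants. efnb2a, an ephrin ligand that separates tissues, had 59.5, 55.1 and 21.3 CPM at 50% and 4.29, 5.5 and 5.52 CPM at 30% (3.15, SE 0.46, adjusted p = 6.80e-07 by edgeR). The noncanonical Wnt ligand gene wnt5b had 9.11, 9.41 and 3.28 CPM at 50% and 1.14, 0.868 and 1.28 CPM at 30% (2.72, SE 0.65, adjusted p = 0.00106). pcdh8, a protocadherin of paraxial mesoderm, had 74.4, 72.6 and 20.3 CPM at 50% and 6.66, 13.3 and 5.63 CPM at 30% (2.70, SE 0.70, adjusted p = 0.00226). A and B were close to each other and C was lowest at 50% in all 3 genes, still above every library at 30%.

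The chemokine gene cxcl12a rose by 1.41, efnb2b by 1.36 and flrt3, a Nodal-responsive transmembrane protein gene, by 1.12, at adjusted p-values of 0.0299, 0.0255 and 0.0466. Of these, efnb2b and flrt3 overlapped between stages. cdh1, the E-cadherin gene on which epiboly depends, had 837, 781 and 783 CPM at 50% and 762, 613 and 657 CPM at 30%, without overlap and without a call (0.24, SE 0.12, adjusted p = 0.121). The count of 9 was 3 without B at 50%, 5 without C at 30% and 4 with library totals. Without B at 50%, cxcl12a was at an adjusted p of 0.118, efnb2b at 0.258 and flrt3 at 0.0794. These 3 calls were also lost when other single libraries were left out, at adjusted p-values of up to 0.166 for cxcl12a, 0.0752 for efnb2b and 0.391 for flrt3.

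A further 8 genes are given one by one, and the 6 of them that rose were each highest in A at 50%. mdm2, which encodes a ubiquitin ligase, had 148, 81.3 and 34.4 CPM at 50% and 30.2, 32.2 and 24.2 CPM at 30% (log2 change 1.61, SE 0.42, adjusted p = 0.00267 by edgeR). rps27l, a ribosomal protein relative, had 63.6, 47.8 and 33.6 CPM at 50% and 11.9, 14.6 and 12.4 CPM at 30% (1.90, SE 0.37, adjusted p = 6.16e-05). Both were higher in each library at 50%, with A highest and C lowest.

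gadd45aa rose by 1.87, phlda3 by 1.60, the cell death gene bbc3 by 1.20 and sesn1 by 1.19, at adjusted p-values of 0.00484, 0.0453, 0.0474 and 0.0235. bbc3 overlapped, since C at 50% had 14 CPM against 16.6 to 18.1 CPM at 30%. casp8 (0.59) and pmaip1 (0.51) were not called, at adjusted p-values of 0.149 and 0.27. Without A at 50% the adjusted p was 0.0803 for mdm2, 0.0786 for gadd45aa, 0.263 for phlda3, 0.432 for bbc3 and 0.366 for sesn1. phlda3 and bbc3 were also lost without B at 50% (0.076 and 0.0849). The calls of phlda3, bbc3 and sesn1 were also lost without any 1 of the 3 libraries at 30%.

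Immediate early and stress genes rose in part. Of 16 tested, 7 rose and 1 fell, with a median log2 change of 0.90, against 0.37 in ndr2 explants and 0.43 in uninjected explants. fosl1a, a Fos-family factor, had 21.5, 12.2 and 4.63 CPM at 50% and 0.671, 3.23 and 1.12 CPM at 30% (2.92, SE 0.52, adjusted p = 1.40e-05 by edgeR). hspb1, a small heat shock protein gene, averaged 1560 ± 401 CPM at 50% and 478 ± 104 CPM at 30% (SD, n = 3 each; 1.71, SE 0.36, adjusted p = 2.31e-04). klf6a rose by 1.48, ier2b by 1.29, fosab by 1.29 and ier2a by 1.08. All but fosab, whose C library at 50% lay within those at 30%, had no overlap between stages. hspa5, the chaperone of the endoplasmic reticulum, was the 1 that fell (-1.01, SE 0.16, adjusted p = 1.36e-06), and dusp1 was not called (0.28, SE 0.23, adjusted p = 0.39). The count of 7 was 4 without A at 50%, without C at 30%, or with library totals. fosab was lost without any 1 library except C at 50% and A at 30% (adjusted p up to 0.232), and ier2a without A at 50% (0.222) or C at 30% (0.109).

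RNA supplied by the egg declined in part. Of 13 maternal transcripts tested, none rose and 6 fell, with a median log2 change of -0.93, against -0.90 in ndr2 explants and -1.09 in uninjected explants. The 13 summed to 1215, 794 and 1105 CPM at 50% and 2329, 1823 and 2542 CPM at 30%. slbp2, an egg-specific histone mRNA binding protein gene, had 6.13, 4.94 and 8.56 CPM at 50% and 35.3, 20.9 and 29.4 CPM at 30% (-2.12, SE 0.40, adjusted p = 3.99e-05 by edgeR). buc, the organizer of germ plasm, had 27.4, 22.6 and 43.7 CPM at 50% and 92, 76.2 and 137 CPM at 30% (-1.70, SE 0.43, adjusted p = 0.00192). In both, B was lowest at each stage and the stages did not overlap.

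cth1, which encodes a zinc finger RNA-binding protein, fell by 1.38 (adjusted p = 6.50e-04), the egg kinase gene wee2 by 1.61 (adjusted p = 0.0261), the maternal linker histone gene h1m by 1.15 (adjusted p = 0.0245) and org by 0.72 (adjusted p = 0.0452). ccna1, the maternal cyclin A gene, was at -0.93 (SE 0.38) and missed the threshold (adjusted p = 0.0582), with no overlap. The count of 6 was 3 without B at 50%, without A at 30% or without C at 30%. wee2, h1m and org were among those lost, at adjusted p-values of up to 0.137, 0.128 and 0.218. Without C at 50%, h1m was at 0.0534 and org at 0.113. Of the 10 germ cell markers, ca15b (-1.60, SE 0.60, adjusted p = 0.0353) and tdrd7a (-1.33, SE 0.48, adjusted p = 0.0293) fell, at a list median of -0.42. Of all genes, 14.9% fell. The other 8 markers were not called, among them ddx4 (0.15) and piwil1 (-0.17). The calls of ca15b and tdrd7a were not made without A at 50%, B at 50%, A at 30% or C at 30%, at adjusted p-values of up to 0.148 for ca15b and 0.135 for tdrd7a.

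The trio of nanog, sox19b and pou5f3, which opens the zygotic genome, and other early zygotic factors listed with it did not move as a group. Of 10 tested, 2 rose and 4 fell, with a median log2 change of 0.19, against 0.44 in ndr2 explants and 0.01 in uninjected explants. The risers were lin28a and klf17, neither of them in the trio, and klf17 is also counted among the enveloping layer markers. Beside the fall of nanog, sox19b, its partner from the SoxB1 family, had 69.1, 67.1 and 64.8 CPM at 50% and 123, 94.4 and 137 CPM at 30% (-0.81, SE 0.26, adjusted p = 0.0115 by edgeR). pou5f3, the third of the trio, had 3669, 4288 and 3728 CPM at 50% and 2640, 2880 and 2491 CPM at 30%, higher in each library but not called (0.54, SE 0.32, adjusted p = 0.203). lin28a, an RNA-binding repressor of let-7, had 388, 592 and 434 CPM at 50% and 188, 243 and 184 CPM at 30% (1.20, SE 0.17, adjusted p = 3.31e-07). mycn fell by 0.94 and znf281b by 0.30, and sall4 was not called (-0.11, SE 0.20, adjusted p = 0.713). The count of 4 that fell was 2 without A at 50%, with mycn at an adjusted p of 0.0587 and znf281b at 0.148, and 2 without C at 30%, with mycn at 0.0535 and sox19b at 0.0662. mycn was also lost without B at 50% (0.101) and znf281b without A at 30% (0.0648).

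Cell cycle genes were called in both directions at a share near that of all genes (31.8%). Of 29 tested, 7 rose and 4 fell, with a median log2 change of 0.04, against 0.02 in ndr2 explants and 0.11 in uninjected explants. The risers were ccne2, mcm3, mcm6, mcm7 and pcna, which serve DNA replication, and ccnb3 and aurkb, which serve mitosis. ccne2, a cyclin E gene, had 283, 406 and 346 CPM at 50% and 110, 166 and 107 CPM at 30% (1.43, SE 0.35, adjusted p = 0.00138 by edgeR), and the helicase subunit genes mcm6 and mcm3 rose by 1.43 and 1.37. ccnb3 rose by 1.27 (SE 0.23, adjusted p = 2.63e-05). ccnd2a fell by 0.97 (adjusted p = 0.0486), and ccnd2b had no count at 50%, with the level at 30% at least 2.13-fold higher (adjusted p = 0.0123). Outside the rule for named genes, the mitotic cyclin genes ccnb1 (-0.50, SE 0.13, adjusted p = 0.00226) and ccnb2 (-0.80, SE 0.15, adjusted p = 4.95e-05) were the remaining members that fell. The abundant mki67 (-0.10, SE 0.11) and ccna2 (-0.09, SE 0.14) were not called, at adjusted p-values of 0.513 and 0.685. With library totals, 5 rose and 8 fell, and without B at 50%, 5 rose and 3 fell. aurkb was lost without B at 50% (adjusted p = 0.0919) and with library totals (0.0805), and mcm7 without B at 50% (0.0822), without C at 30% (0.0658) and with library totals (0.113). ccnd2a was lost without A at 50% (adjusted p = 0.156), B at 50% (0.237) or A at 30% (0.315).

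**Figure D4:**
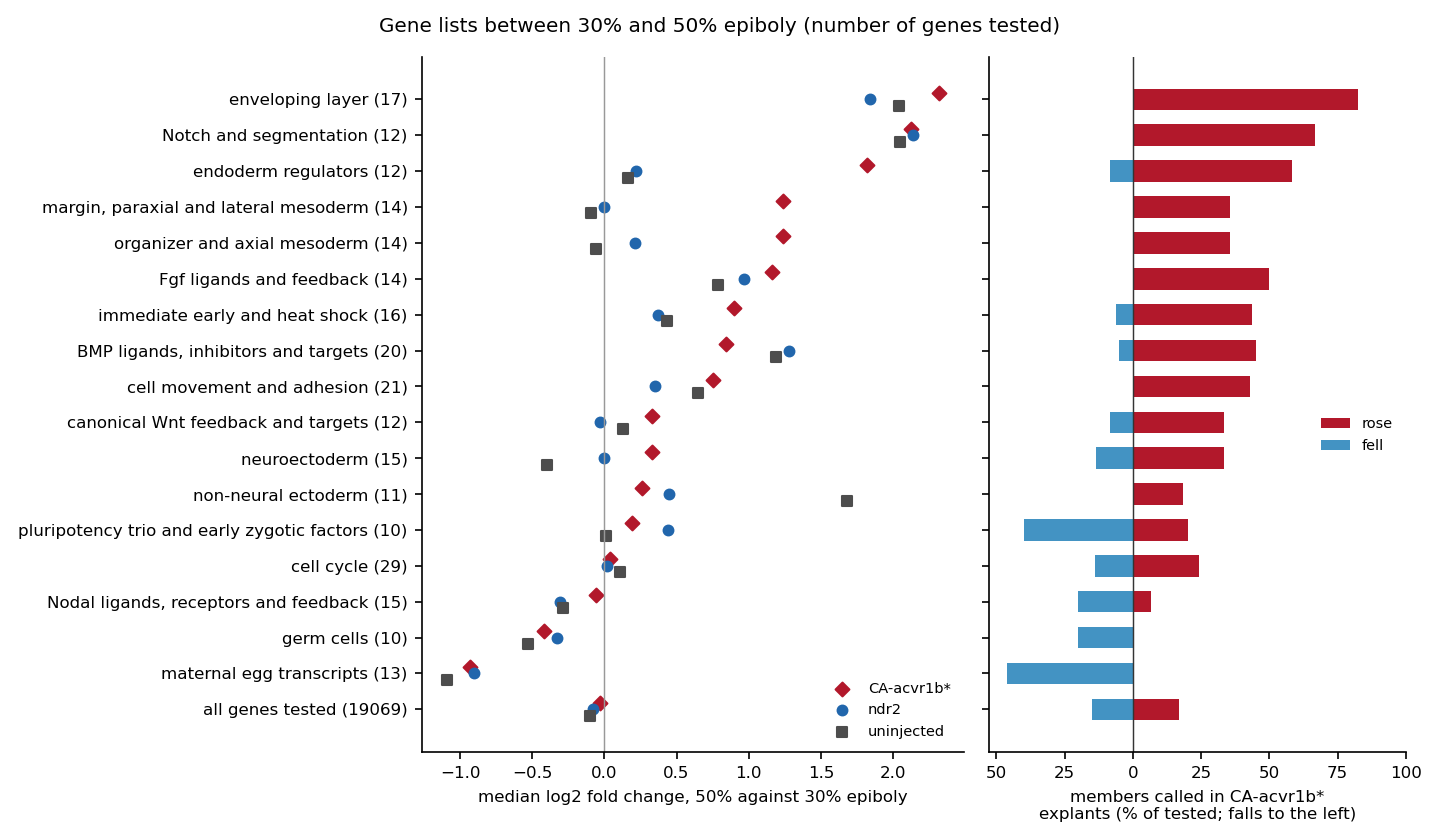
Left, the median log2 change at 50% against 30% epiboly of each gene list shown (number of genes tested in brackets) in CA-acvr1b* (diamonds), ndr2 (circles) and uninjected explants (squares); right, the percent of tested members called in CA-acvr1b* explants, rises to the right and falls to the left of 0. Enveloping layer and Notch genes had the largest medians in CA-acvr1b* explants, 2.32 and 2.12, maternal transcripts the lowest, -0.93, and the yolk syncytial layer markers, near 0 CPM, are left out.

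Single genes of these groups had different courses over the 7 stages in CA-acvr1b* explants. tbxta, given as the mean of 3 libraries from sphere to 2-somite, had 18, 27.6, 176, 314, 527, 566 and 330 CPM, and krt4, an enveloping layer keratin gene, had 13.4, 550, 2393, 4168, 6516, 7458 and 11056 CPM. krt4 climbed at every stage, while tbxta climbed up to 90% epiboly and was lower at 2-somite. mixl1, with 13.1, 22.1, 87, 63.8, 27.5, 10.7 and 2.61 CPM, and mdm2, with 19.9, 28.8, 88, 63.7, 51.9, 31.4 and 22.8 CPM, were highest at 50% epiboly. her7 peaked 1 stage later, at shield, with 1.71, 1.04, 37.9, 64, 32.1, 24.5 and 12.7 CPM. sox2 was near 0 up to 30% and stayed high after 50%, with 0.309, 0.0186, 42.9, 185, 263, 229 and 233 CPM. nanog was highest at 30%, with 1981, 2589, 992, 375, 114, 93 and 51.5 CPM, while buc fell throughout, with 350, 102, 31.2, 17.7, 6.94, 4.64 and 2.56 CPM.

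Most of the change also occurred without the active receptor. The same interval gave 4185 called genes in ndr2 explants (21.9%; 11.6% higher, 10.4% lower) and 4741 in uninjected explants (24.9%; 12.5% higher, 12.4% lower), beside the 31.8% in CA-acvr1b* explants, and none of the 3 contrasts shares a library with another. Of the 3221 genes that rose in CA-acvr1b* explants, 1833 (56.9%) rose in ndr2 explants and 2037 (63.2%) in uninjected explants, which is 83.1% and 85.6% of the genes that rose there. Of the 2842 that fell, 1591 (56%) fell in ndr2 explants and 1894 (66.6%) in uninjected explants, or 80.4% and 80.2% of theirs. At most 5 genes were called in opposite directions in any of these pairs. On the stage score given above, uninjected libraries A, B and C stood at 0.17, -0.37 and -1.03 at 30%. At 50% they stood at 2.17, 1.33 and 0.89, so they spread more widely at each stage than the CA-acvr1b* libraries. The part of this spread in the counts and differences was not tested. Over 10305 genes with at least 5 CPM, the changes in CA-acvr1b* and in ndr2 explants had a Pearson r of 0.917 and a Spearman rho of 0.91 across genes, and those in CA-acvr1b* and in uninjected explants had 0.926 and 0.928. These are descriptions, since genes are not independent replicates.

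**Figure D5:**
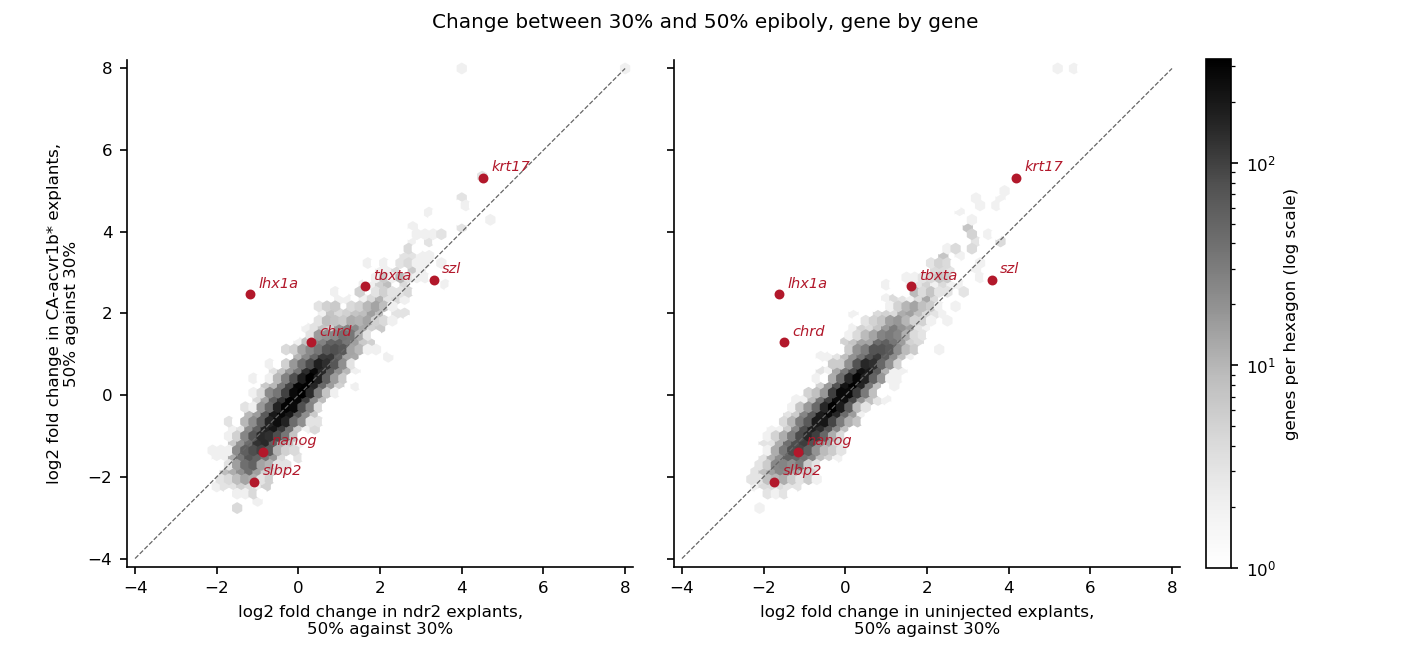
Log2 change at 50% against 30% epiboly in CA-acvr1b* explants (vertical axis) against the same change in ndr2 explants (left panel) and in uninjected explants (right panel), as the number of genes per hexagon for genes that reached 5 CPM, with 7 genes named and the dashed line marking equal change. Genes gather along the line (r of 0.917 and 0.926), 7 genes beyond a change of 8 are drawn at 8, and lhx1a lies at 2.47 in CA-acvr1b* explants against -1.18 and -1.63.

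The difference between conditions was tested gene by gene. No gene passed in edgeR's test of the difference between the change in CA-acvr1b* explants and that in ndr2 explants, where 1180 genes (6.19%) had an unadjusted p under 0.05, and none passed against uninjected explants, where 914 did (4.79%). DESeq2 called 16 and 3. The values that follow are therefore descriptions and not calls. lhx1a changed by 2.47 in CA-acvr1b* explants, by -1.18 in ndr2 explants and by -1.63 in uninjected explants. Its levels were 1.56 ± 1.45 CPM at 50% and 3.49 ± 0.394 CPM at 30% in ndr2 explants, and 1.1 ± 0.863 CPM at 50% and 3.32 ± 1.82 CPM at 30% in uninjected explants (SD, n = 3 each). The difference of its changes was 3.66 (SE 0.96, unadjusted p = 4.29e-04, adjusted p = 0.308 by edgeR) against ndr2 and 4.1 (SE 0.98, unadjusted p = 1.34e-04, adjusted p = 0.392) against uninjected explants.

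Members of the endoderm, organizer and Nodal lists had differences of either sign. sebox was at -1.56 against uninjected and -2.04 against ndr2 explants (SE 1.84 and 1.36), and smad2 at -0.33 and -0.43 (SE 0.22 each). For sebox these are folds over rows at or near 0. Its means at 50% and 30% were 0.131 and 0 CPM in uninjected explants and 1.85 and 0.0678 CPM in ndr2 explants. In CA-acvr1b* explants they were 42.1 and 7.49 CPM. The list medians that follow include such rows. The median difference from uninjected explants was -0.04 over the Nodal list, 0.79 over the endoderm list and 1.19 over the organizer list, beside 0.05 over all genes. It was 1.11 over the margin list and 0.84 over the neuroectoderm list, so such values were not particular to endoderm and organizer genes. The lowest was -0.29, over the BMP list. For chrd the difference was 2.79 against uninjected explants (SE 0.84, adjusted p = 0.64), where its level was 3.88 ± 1.49 CPM at 50% and 10.9 ± 1.27 CPM at 30% (SD, n = 3 each). For mixl1 it was 2.56 (SE 0.81, adjusted p = 0.679), on levels of 0.727 ± 0.594 CPM at 50% and 1.07 ± 0.252 CPM at 30% in uninjected explants. For ndr2 it was 3.54 (SE 0.99, adjusted p = 0.613), on uninjected levels of 0.257 ± 0.186 CPM at 50% and 0.734 ± 0.686 CPM at 30%. In uninjected explants the means of mixl1 and ndr2 were thus at most 1.07 CPM, against up to 156 and 8.31 CPM in single CA-acvr1b* libraries at 50%. Against ndr2 explants the differences were smaller, 0.98 for chrd (SE 0.77), 1.47 for mixl1 (SE 0.70) and 2.43 for ndr2 (SE 0.74). Their adjusted p-values were 0.949, 0.778 and 0.446 by edgeR. In ndr2 explants a count of ndr2 does not separate injected from endogenous transcript. For mdm2 the differences were 1.04 (SE 0.59, adjusted p = 0.861) against ndr2 explants and 0.82 (SE 0.59, adjusted p = 1) against uninjected explants.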

How the data were processed

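Counts per gene were deposited as 1 table of whole reads for 63 libraries. Per the submitters' processing notes, the authors used Trim Galore, STAR, featureCounts and the GRCz11 (danRer11) build, in no stated role, and versions, strand and multi-mapping settings are not given in the sources used here. Libraries were grouped by title. From the deposited counts, edgeR 4.0.16 (R 4.3.3; TMM factors, filterByExpr with a minimum count of 10, glmQLFit, glmQLFTest) was fitted to all 21 groups of 3, with 42 residual degrees of freedom, no replicate term and a common biological coefficient of variation of 0.309. Genes were called at a Benjamini-Hochberg adjusted p under 0.05. The tested genes held 99.969% of the counts. The fit was tested on simulated data for this contrast, in which the changed genes had at least 5 CPM at 30%. It recovered 57 of 100 genes changed 2-fold and 91 of 100 changed 4-fold, and called 2 unchanged genes. A gene that was not called may therefore still have changed. The comparison, gene lists and tests were chosen with earlier results of these data known. Named genes were the 12 largest called rises and falls with at least 5 CPM and no overlap, the 3 largest rises and falls in CPM, and from each list up to 6 called members and up to 2 uncalled ones. Other genes were chosen after their values were seen: cxcr4a, eomesa, sox32, hspa5, notch1b, notch3, krt4, mcm7, pcna, aurkb, ccnb1, ccnb2 and those of the closing section. Alternatives were DESeq2 1.42.0, DESeq2 size factors, library totals, no filter, other sets of libraries, a replicate block and leaving out each library. Some genes are not reported here.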

Additional observations from a re-analysis of the deposited data

How the results depend on the processing

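Leaving out 1 library of either stage gave between 4354 and 5670 called genes in place of 6063, and between 2439 and 3507 changed at least 2-fold in place of 3425. DESeq2 called 6609 genes, edgeR without a filter 5478, library totals 6308, the 6 libraries alone 5773 and all 7 stages of these explants 6549. For the difference from uninjected explants edgeR called 0 genes under each alternative and DESeq2 3 (nmnat3, slc26a6 and CU855688.2). For the difference from ndr2 explants DESeq2 called 16, and leaving out 1 library gave 0 to 2 in edgeR (lad1 and grb7 without C at 50% in CA-acvr1b* explants, gng12a without B at 50% in ndr2 explants). The replicate letters were not shown to pair the libraries: same-letter deviations correlated at 0.0555, 0.101 and 0.0598, different-letter ones at -0.0744 to 0.00792. With the letter as a replicate block, 6364 genes were called over all libraries and 6446 over the libraries compared, and for the difference from ndr2 explants 1 (lad1) and 2 (hmgn2 and ndr2). For ndr2 itself, counts in ndr2 explants may include the injected mRNA. Directions turned for acvr1ba (-0.03) and for the list medians of the zygotic factors (-0.0087) and the cell cycle (-0.15) under library totals. With 1 library left out, lft1 ranged between -0.39 (without A at 50%) and 0.96, noto between -0.09 (without A at 50%) and 0.40, the yolk syncytial layer median between -0.17 (without B at 50%) and 1.98, and the Nodal list median between -0.19 and 0.0051 (without C at 30%). The cause was not tested. A gene of a few counts a library has wide error at these depths. Calls were also gained among named genes not called in the main fit. These were 8 with the libraries compared alone, 16 with a replicate block over them and 8 with all 7 stages of these explants. With the libraries compared alone, 10 Fgf, 12 cell movement and 5 early zygotic genes were called higher, in place of 7, 9 and 2. Other calls of named genes were lost with library totals (bbc3, cxcl12a, dla, efnb2b, flrt3, fosab, ier2a, phlda3, sesn1, spred2a and tcf7l1b), without the filter (bbc3, ca15b, ccnd2a, dla, flrt3, id2b, org, phlda3, slc16a3 and smad4a), with the libraries compared alone (bbc3, ccnd2a, flrt3, gata5, sesn1, smad4a and szl), with all 7 stages of these explants (bbc3, dla, flrt3, id2b, smad4a and szl), with DESeq2 size factors (bbc3) and with a replicate block over all libraries (bbc3, ccnd2a, dla, phlda3 and tbx16l) or over the libraries compared (bbc3, ccnd2a, dlc, efnb2b, frzb, gata5, her3, osr1, phlda3, smad4a and smad6a).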

Other observations

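Families of genes outside the lists, chosen by symbol after values were seen, include several of protein making and energy in which most called members were higher at 50% epiboly in CA-acvr1b* explants, and others, of Rab GTPase regulation and tRNA modification, in which most called members were lower. Of 41 large ribosomal subunit genes 38 rose and none fell, with a median log2 change of 0.98, beside -0.03 for all genes. They summed to 6607, 7838 and 6681 CPM at 50% and 3710, 3924 and 3631 CPM at 30%, with no overlap. rpl4 is an example, with 543 ± 67.7 CPM at 50% and 291 ± 24.6 CPM at 30% (SD, n = 3 each; 0.90, adjusted p = 1.97e-07 by edgeR). Of 32 small subunit genes 29 rose, at the same median of 0.98, rpsa among them with 377 ± 46.3 CPM at 50% and 165 ± 20.8 CPM at 30%. The median change of large subunit genes was 0.64 in ndr2 explants and 0.95 in uninjected explants. Of 46 proteasome subunits 31 rose and 2 fell, of 15 SR splicing factors 14 rose, of 18 ATP synthase genes 11 rose and of 21 cytochrome c oxidase genes 10 rose, with none lower in those 3 groups. Other families of the same kind moved less, with 27 of 56 translation initiation factors higher and 3 lower, and 19 of 63 mitochondrial ribosomal protein genes higher and 5 lower. Of all genes, 16.9% were higher and 14.9% lower. The called mitochondrial ribosomal protein genes were mostly higher, while over all genes the directions were closer to even. The median change of mitochondrial ribosomal protein genes was 0.18, against -0.14 in ndr2 explants and 0.06 in uninjected explants.

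Of 42 DENN and TBC genes, which regulate Rab GTPases of membrane traffic, 4 rose and 22 fell, with a median of -0.83. dennd5b had 124 ± 19 CPM at 50% and 319 ± 47.3 CPM at 30% (-1.36, adjusted p = 1.00e-07 by edgeR). Of 15 tRNA methyltransferase genes none rose and 9 fell. Among 17 desmosome and plakin genes, which join epithelial cells, 10 rose and 2 fell, with ppl at 777 ± 185 CPM at 50% against 109 ± 40.6 CPM at 30% and dspa at 510 ± 202 CPM at 50% against 59.3 ± 33.9 CPM at 30%. The direction of a family whose changes are near 0 rests on the scaling, since library totals move every change by a median of -0.193. Of 557 lincRNA rows 11.7% were called higher and 5.75% lower, beside 17.3% and 15.7% of 17760 protein-coding ones, a difference that was not tested.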
